A study of Rattus norvegicus with 7 samples.

Results

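The genes described here are 10 immediate early genes outside the AP-1 family: Egr1, Egr2, Egr3, Nr4a1, Nr4a2, Nr4a3, Ier2, Ier3, Ier5 and Myc. They were chosen by gene symbol, and all 10 were found among the 17147 symbols of each library. rMSCs, primary mesenchymal stem cells from rat bone marrow, were seeded at 20000 cells on films of 16 mm in diameter or on TCP, the uncoated culture plastic, and RNA was collected after 4 h. PCL is a film of polycaprolactone, and ISB-P is a film of the polyurethane copolymer that contains polycaprolactone and propoxylated isosorbide. Values were available from 3 PCL, 3 ISB-P and 1 TCP libraries, and the study's methods describe 1 male Sprague-Dawley rat aged 6 weeks as the source of the cells. No source used here says whether the libraries of a film came from separate cultures, so the p-values measure only the spread between these libraries. The question was how gene expression on ISB-P differed from that on PCL and TCP.

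Immediate early genes are switched on within minutes of a stimulus, such as serum, adhesion or stress, without new protein synthesis, and their transcripts are short-lived. Many are induced through the ERK kinase cascade, which activates SRF and its ternary complex partners at CArG boxes, and through CREB at cyclic AMP response elements. In cells that have just been seeded, contact with the substrate and growth factors in serum both act on these routes. Egr1, Egr2 and Egr3 encode zinc finger transcription factors, Nr4a1, Nr4a2 and Nr4a3 encode orphan nuclear receptors, Ier2 and Ier5 encode related regulators that bind protein phosphatase 2A, Ier3 encodes a regulator of cell survival and ERK signalling, and Myc encodes a transcription factor that drives ribosome production and growth.

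Upstream sequences were compared because these routes act at short promoter motifs. The RefSeq promoter table of the GRCr8 rat assembly held 6 of the 10 genes (Egr1, Egr2, Nr4a1, Nr4a2, Ier2 and Ier5), and the 250 bases upstream of each annotated start were searched on both strands. A CArG box lay in the upstream bases of Egr1 and Egr2, against 1.50% of all 33469 promoters in the table. Egr2 had it from 83 to 74 bases upstream of the start, and Egr1 had one at the same distance and another from 105 to 96 bases upstream. The cyclic AMP response element TGACGTCA was found in Ier2 alone of the 6 genes, from 66 to 59 bases upstream, and in 1.59% of all promoters. Its core TGACG, which also lies inside the longer motif, was found in 5 of the 6 genes and in 18.2% of all promoters. Nr4a1 held it at 4 places. The Ets motif CCGGAA was found in Egr2, Nr4a1 and Ier2 and in 12.6% of all promoters, the heat shock motif GAANNTTC in Nr4a2 and in 7.23%, the Egr motif GCGGGGGCG in Nr4a1 and in 2.45%, and the TATA motif TATAAA in Ier5 and in 12.9%. These matches are letters in a window, and binding was not measured. The 4 sequences below are given 5′ to 3′ up to the base before the start and lie in the upstream flank of each gene in GRCr8, which is not the build of the files. They are at chr20:21054442-21054691 on the minus strand for Egr2, chr7:134259888-134260137 on the plus strand for Nr4a1, chr19:40399123-40399372 on the plus strand for Ier2 and chr13:69822543-69822792 on the minus strand for Ier5. Capitals mark the CArG box and the TGACG core in Egr2, the TGACG cores in Nr4a1, TGACGTCA in Ier2 and TATAAA in Ier5, and a core that lies on the other strand reads CGTCA here. Egr2 and Ier5 are shown as members called between the films in the fit without or with the replicate block described below. Nr4a1 and Ier2 are shown as members called in neither of these fits, although each was called in an alternative blocked fit.
Egr2 upstream: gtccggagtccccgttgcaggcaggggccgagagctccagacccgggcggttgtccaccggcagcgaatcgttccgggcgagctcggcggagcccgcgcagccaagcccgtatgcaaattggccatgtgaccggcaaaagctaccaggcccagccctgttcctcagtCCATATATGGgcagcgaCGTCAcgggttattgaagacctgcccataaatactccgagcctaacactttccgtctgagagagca
Nr4a1 upstream: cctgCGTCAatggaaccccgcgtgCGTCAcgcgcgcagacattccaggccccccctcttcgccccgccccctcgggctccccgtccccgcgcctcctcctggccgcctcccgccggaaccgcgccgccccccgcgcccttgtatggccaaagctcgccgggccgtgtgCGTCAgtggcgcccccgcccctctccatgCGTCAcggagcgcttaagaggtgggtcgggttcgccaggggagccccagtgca
Ier2 upstream: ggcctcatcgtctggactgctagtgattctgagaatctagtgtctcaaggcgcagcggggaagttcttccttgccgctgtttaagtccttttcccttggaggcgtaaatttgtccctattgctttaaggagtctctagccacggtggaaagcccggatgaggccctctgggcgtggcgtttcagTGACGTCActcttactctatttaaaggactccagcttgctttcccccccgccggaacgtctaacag
Ier5 upstream: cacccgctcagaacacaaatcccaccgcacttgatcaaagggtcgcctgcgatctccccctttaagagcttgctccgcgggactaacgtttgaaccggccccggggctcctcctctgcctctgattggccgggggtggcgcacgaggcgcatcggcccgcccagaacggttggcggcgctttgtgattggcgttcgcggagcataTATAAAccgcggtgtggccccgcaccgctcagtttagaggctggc

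The authors deposited 1 normalized value per gene and library, read here as FPKM, fragments scaled by transcript length and by the mapped total. Sums per library ran from 539393 to 660124 and say nothing of depth. Read numbers are unknown, so precision rests on the 3 libraries of each film. A gene entered the test if 3 or more of the 6 film libraries had it at 1 FPKM or above. For the 9467 such genes, limma tested the difference of ISB-P from PCL on log2(FPKM + 1), a scale that understates the change of genes near 1 FPKM. Of the 10 genes, 9 were tested, since Nr4a3 reached 1 FPKM in fewer libraries. Libraries with the same replicate number deviated together from the means of their films, with correlations across genes of 0.887, 0.431 and 0.867, so the fit with the replicate number as a block is given beside the fit without it. The numbers are those of the sample titles. The headers of the files number the libraries in another way, and no source used here says that same-numbered libraries shared a culture, so every call with the block rests on the titles and on these correlations. Of 10 mesenchymal markers, 9 had values above 0 in every library, from Nt5e, at 8.13 FPKM or more, to Col1a1, at 3868 FPKM or more, and Col1a2 was listed at 0 in all 7 libraries. The list summed to between 6611 and 7999 FPKM on the films and to 12748 on TCP, most of it Col1a1. With the replicate block, Pdgfra and Pdgfrb were called lower on ISB-P than on PCL (limma, adjusted p = 0.547 and 0.0510, and 0.0200 and 1.41e-04 with the block). They made 22.2% of the 9 tested markers of this list, against 11.4% of all tested genes called lower with the block. Of 9 blood cell markers, Cd34, Hbb and Hba1 were listed at 0 in all 7 libraries, and the list summed to between 18.2 and 25.9 FPKM on the films and to 57.0 on TCP. No source used here says whether a 0 in all 7 libraries, as also listed for Col1a2, marks absence or a symbol without a measurement. Cd14 was called lower on ISB-P than on PCL with the block (limma, adjusted p = 0.175, and 0.00663 with the block). It made 33.3% of the 3 tested blood cell markers, against 11.4% of all tested genes. The part of these markers in the results was not tested. The 5 endothelial markers summed to 1.14 FPKM or less in every library.

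Egr2 was higher on ISB-P than on PCL, and it was the only 1 of the 9 tested genes that passed an adjusted p under 0.05 without the block. Of all tested genes, 1.10% were called higher and 0.623% lower. With the replicate block, Egr2, Egr3 and Ier5 were called higher and no member was called lower, where 13.0% of all tested genes were called higher and 11.4% lower. The thresholds of the study are a fold over 2 and a p under 0.1, read here as unadjusted, and its heat map adds a normalized value over 16, read here as a film mean of 16 FPKM or more. No member passed all of these, which 0.613% of tested genes passed as higher and 0.0739% as lower. Ordered by mean on ISB-P, the levels in FPKM ran from Ier3 over Myc, Ier5, Ier2 and Egr1, all over 16 FPKM, down to Egr3, Nr4a2, Nr4a1, Egr2 and Nr4a3. Neighbours in this order differed by less than the larger of their SDs from Myc down to Egr1 and from Egr3 down to Nr4a1. For the 9 tested members the log2 differences had a median of 0.16, against 0.016 for all tested genes, and of 0.050 under quantile normalization, where the median of all tested genes was -0.018. At an unadjusted p under 0.05 in limma, Egr2 and Egr3 were higher and no member was lower, against 5.51% and 6.58% of tested genes. No member had all ISB-P libraries below all PCL libraries, as 9.54% of tested genes had. Replicate 1 was the highest library on both films for Egr3, Nr4a1, Ier2, Ier5 and Myc, 5 of the 9 tested members, against 29.3% of tested genes.

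**Figure D1:**
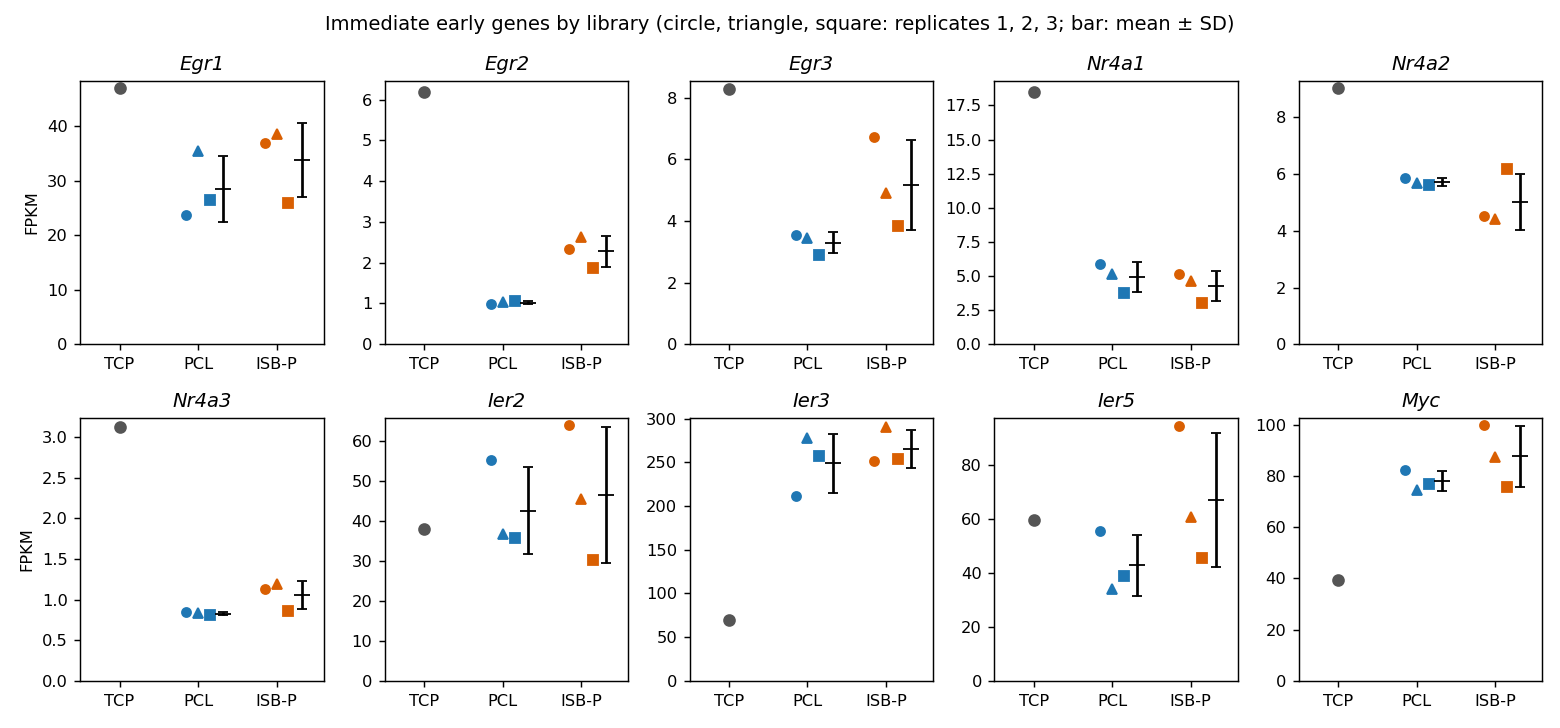
FPKM (y axes, linear, from 0) of the 10 immediate early genes in the TCP library (grey), the 3 PCL libraries (blue) and the 3 ISB-P libraries (orange), with circle, triangle and square for replicates 1, 2 and 3 and the mean ± SD of each film beside them. The TCP library is above all 6 film libraries for the 3 Egr and 3 Nr4a genes and below all 6 for Ier3 and Myc, and Egr2 and Egr3 are higher in every ISB-P than in every PCL library.

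Among the Egr genes, Egr2, a factor known from the myelination of nerves and from the response of many cells to growth factors, was at 0.977, 1.03 and 1.06 FPKM in PCL replicates 1, 2 and 3 and at 2.34, 2.63 and 1.87 FPKM in the same replicates of ISB-P. All ISB-P libraries were above all PCL libraries, as for 8.17% of tested genes. The means were 1.02 ± 0.0412 FPKM (SD, n = 3) on PCL and 2.28 ± 0.381 FPKM (SD, n = 3) on ISB-P, a ratio of 2.23. On the log2(FPKM + 1) scale the difference was 0.69 with a standard error of 0.12 (limma, adjusted p = 0.0445, and 0.00259 with the replicate block). With a pseudocount of 0.1 it was 1.07. The call without the block was lost under upper quartile scaling (adjusted p = 0.0875) and under scaling to a common total (adjusted p = 0.0927). It was also lost when any library but ISB-P replicate 3 was left out, with adjusted p-values of 0.103 and 0.225 without ISB-P replicates 1 and 2 and of 0.162, 0.224 and 0.173 without PCL replicates 1, 2 and 3.

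Egr3, which shares the zinc finger domain of the family and is induced with Egr2 in activated lymphocytes, was at 3.55, 3.45 and 2.89 FPKM on PCL and at 6.73, 4.90 and 3.83 FPKM on ISB-P. Again the films did not overlap, and the ISB-P libraries spread more widely than the PCL libraries. The means were 3.30 ± 0.352 and 5.16 ± 1.47 FPKM (SD, n = 3), and the log2 difference was 0.50 with a standard error of 0.19 (limma, adjusted p = 0.341, and 0.0124 with the replicate block). Within replicate numbers 1, 2 and 3 the ratio of ISB-P to PCL was 1.90, 1.42 and 1.32. Without ISB-P replicate 1 the log2 difference was 0.32.
Egr1, the best known serum response gene of the family, was at 23.7, 35.4 and 26.4 FPKM on PCL and at 36.8, 38.5 and 25.9 FPKM on ISB-P. The films overlapped, with ISB-P replicate 3 below PCL replicates 2 and 3. The log2 difference was 0.24 with a 95% confidence interval from -0.27 to 0.75 (limma, adjusted p = 0.843, and 0.173 with the block). It ranged from 0.12 without PCL replicate 1 to 0.41 without ISB-P replicate 3. The ratio of ISB-P to PCL was 1.55 within replicate number 1 and 0.980 within replicate number 3.

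None of the Nr4a receptors, which act without a known ligand and are induced by cyclic AMP and growth factors, was called between the films with or without the block. Nr4a1 was at 5.87, 5.16 and 3.72 FPKM on PCL and at 5.12, 4.67 and 3.04 FPKM on ISB-P. It was lower on ISB-P within each replicate number, with ratios of 0.872, 0.905 and 0.815, as for 27.7% of tested genes, and the ranges of the films overlapped. Its log2 difference was -0.17 with a 95% confidence interval from -0.67 to 0.33 (limma, adjusted p = 0.901, and 0.177 with the block). It was called lower in the blocked fit after scaling to a common total, where the log2 difference was -0.26 (limma, adjusted p = 0.0475). That fit called 2113 of 9467 tested genes lower and 714 higher, and the median log2 difference of all tested genes was -0.089.
Nr4a2 was at 5.87, 5.69 and 5.61 FPKM on PCL and at 4.51, 4.42 and 6.17 FPKM on ISB-P. ISB-P replicates 1 and 2 were below all PCL libraries and ISB-P replicate 3 above them. Its log2 difference was -0.17 with an interval from -0.51 to 0.17 (limma, adjusted p = 0.815, and 0.281 with the block). It was -0.30 without ISB-P replicate 3. In the blocked fit without replicate 3, which rests on 1 residual degree of freedom, it was -0.31 (limma, adjusted p = 0.0156). That fit called 1379 of 9467 tested genes lower.
Nr4a3 was at 0.842, 0.835 and 0.810 FPKM on PCL and at 1.13, 1.19 and 0.861 FPKM on ISB-P. All ISB-P libraries were above all PCL libraries, but ISB-P replicate 3 only narrowly. When the filter on low values was removed so that Nr4a3 entered the test, its log2 difference was 0.17 (limma, adjusted p = 0.473).

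Of the Ier genes, Ier5, whose product binds protein phosphatase 2A and the heat shock factor Hsf1, was at 55.6, 34.1 and 38.9 FPKM on PCL and at 94.4, 60.8 and 45.7 FPKM on ISB-P. ISB-P was higher within each replicate number, as for 30.5% of tested genes, with ratios of 1.70, 1.78 and 1.17, although ISB-P replicate 3 was below PCL replicate 1. The means were 42.9 ± 11.3 and 67.0 ± 24.9 FPKM (SD, n = 3). The log2 difference was 0.60 with a standard error of 0.30 without the block (limma, adjusted p = 0.536) and of 0.11 with it (adjusted p = 0.00641). It was 0.32 without ISB-P replicate 1. Hsf1 itself, singled out after its value was seen, was at 21.3 ± 1.25 FPKM on PCL and 21.0 ± 2.83 FPKM on ISB-P (SD, n = 3). Hspa1a and Hspa1b are Hsf1 targets so alike that the split of reads between them is uncertain. They had log2 differences of 5.47 and 5.69 (limma, adjusted p = 0.00361 and 8.79e-04), and Hspa1a ranged from 263 to 954 FPKM on ISB-P. On TCP they were at 91.1 and 17.1 FPKM, 7.96 and 6.14 times their means on PCL. A link of Ier5 to these genes was not tested.
Ier2 was at 55.2, 36.7 and 35.7 FPKM on PCL and at 64.0, 45.4 and 30.1 FPKM on ISB-P. Replicate 1 was the highest library on both films, and ISB-P replicate 3 was the lowest library of all. The log2 difference was 0.090 with a 95% confidence interval from -0.62 to 0.80 (limma, adjusted p = 0.963), and its sign turned under scaling to a common total, to -0.023. In the blocked fit without replicate 3, which rests on 1 residual degree of freedom, it was 0.26 (limma, adjusted p = 4.52e-04). That fit called 1758 of 9467 tested genes higher.
Ier3 was the most abundant member, at 212, 277 and 257 FPKM on PCL and at 251, 290 and 254 FPKM on ISB-P. The films overlapped, and the log2 difference was 0.098 with an interval from -0.24 to 0.44 (limma, adjusted p = 0.916). It was -0.054 under quantile normalization.
Myc was at 82.2, 74.7 and 76.7 FPKM on PCL and at 99.7, 87.4 and 75.7 FPKM on ISB-P. ISB-P replicates 1 and 2 were above all PCL libraries and ISB-P replicate 3 lay within their range. The log2 difference was 0.16 with an interval from -0.18 to 0.50 (limma, adjusted p = 0.836, and 0.167 with the block). It ranged from 0.064 without ISB-P replicate 1 to 0.26 without ISB-P replicate 3.

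**Figure D2:**
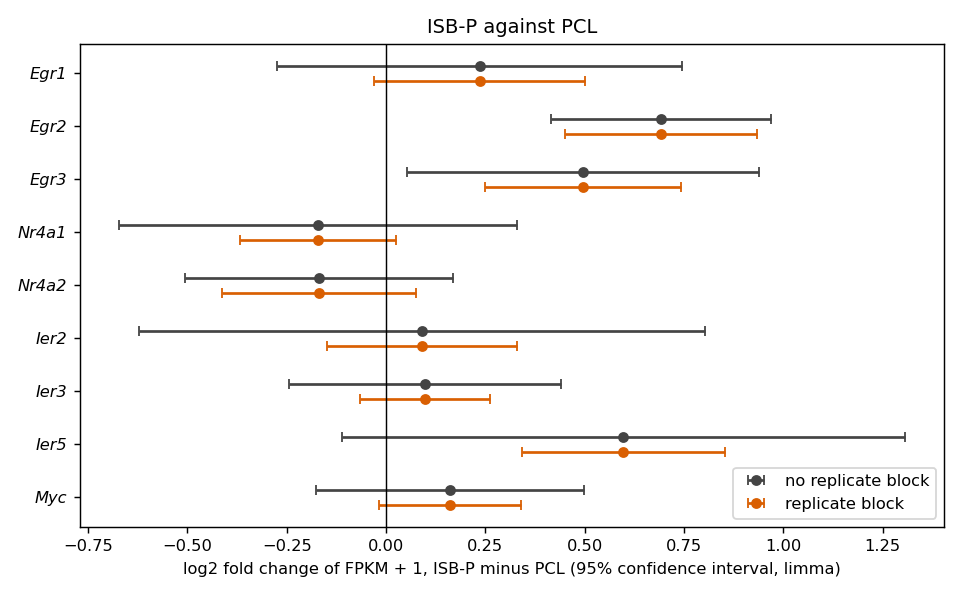
Difference in log2(FPKM + 1) between ISB-P and PCL (x axis, ISB-P minus PCL) for the 9 tested genes, with 95% confidence intervals from limma without (grey) and with (orange) the replicate block, 3 libraries per film. The unadjusted intervals of Egr2 and Egr3 lie above 0 in both fits, that of Ier5 only with the block, and those of the other 6 genes cross 0 in both.

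In a two-sided exact permutation test of 3 ISB-P against 3 PCL libraries, p was 0.1 for Egr2, Egr3 and Nr4a3, which is the smallest p that 3 against 3 libraries allow. It was 0.2 for Ier5, 0.3 for Egr1 and Myc, 0.4 for Nr4a2, 0.5 for Nr4a1, 0.6 for Ier3 and 0.7 for Ier2.

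Against TCP, the Egr and Nr4a genes stood on one side, and the Ier genes were not on one side together. The 3 Egr and 3 Nr4a genes were higher in the TCP library than in all 6 film libraries, Ier3 and Myc were lower than in all 6, and Ier2 and Ier5 lay within the range of the films. Of the 9 tested members, 5 were thus above all film libraries and 2 below, against 25.4% and 29.7% of all tested genes. The same genes stood above and below the films after scaling to a common total or to the upper quartile and after quantile normalization. With 1 TCP library these differences have no replicate check, and the comparisons of PCL and of ISB-P with TCP share that library.

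Egr2 was at 6.19 FPKM on TCP, 6.06 times its mean on PCL and 2.72 times that on ISB-P. Egr3 was at 8.27 FPKM on TCP, 2.51 and 1.60 times the means on PCL and ISB-P. Egr1 was at 47.0 FPKM, with smaller ratios of 1.65 and 1.39. For all of the Egr genes the mean on ISB-P therefore lay between that on PCL and the TCP value, and that of Egr1 was not separated from PCL by its spread.
Nr4a1 was at 18.5 FPKM on TCP, 3.77 times its mean on PCL and 4.33 times that on ISB-P. Nr4a3 was at 3.12 FPKM on TCP, with ratios of 3.77 and 2.95. Nr4a2 was at 9.04 FPKM on TCP, with ratios of 1.58 and 1.80. The means of Nr4a1 and Nr4a2 on ISB-P did not lie between PCL and TCP. That of Nr4a3, at 1.06 FPKM on ISB-P and 0.829 FPKM on PCL, did.
Ier3 was at 70.1 FPKM on TCP, and its means were 3.55 times that value on PCL and 3.78 times on ISB-P. Myc was at 39.3 FPKM on TCP, with ratios of 1.98 and 2.23. Ier2 was at 37.9 and Ier5 at 59.5 FPKM on TCP. The films were spread to both sides of these values.

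On the log2(FPKM + 1) scale and among the 9 tested members, Egr2, Egr3 and Nr4a1 were over 2-fold lower on PCL than on TCP, as were 3.04% of tested genes, and Egr2 and Nr4a1 were over 2-fold lower on ISB-P, as were 4.28%. Ier3 was over 2-fold higher on PCL, as were 5.56% of tested genes, and Ier3 and Myc on ISB-P, as were 8.98%. Myc lost this under quantile normalization, where its log2 ratio was 0.93, and under scaling to a common total, where it was 0.96. In the blood cell list, the tested markers Cd14, Csf1r and Cd68 were all over 2-fold lower on both films than on TCP, and Ptprc, the general marker of white blood cells, was at 1.48 FPKM on TCP and between 0.433 and 1.23 FPKM on the films. The part of such cells in the levels on TCP was not tested, and in bulk RNA fewer cells of a type and less RNA per cell cannot be told apart.

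**Figure D3:**
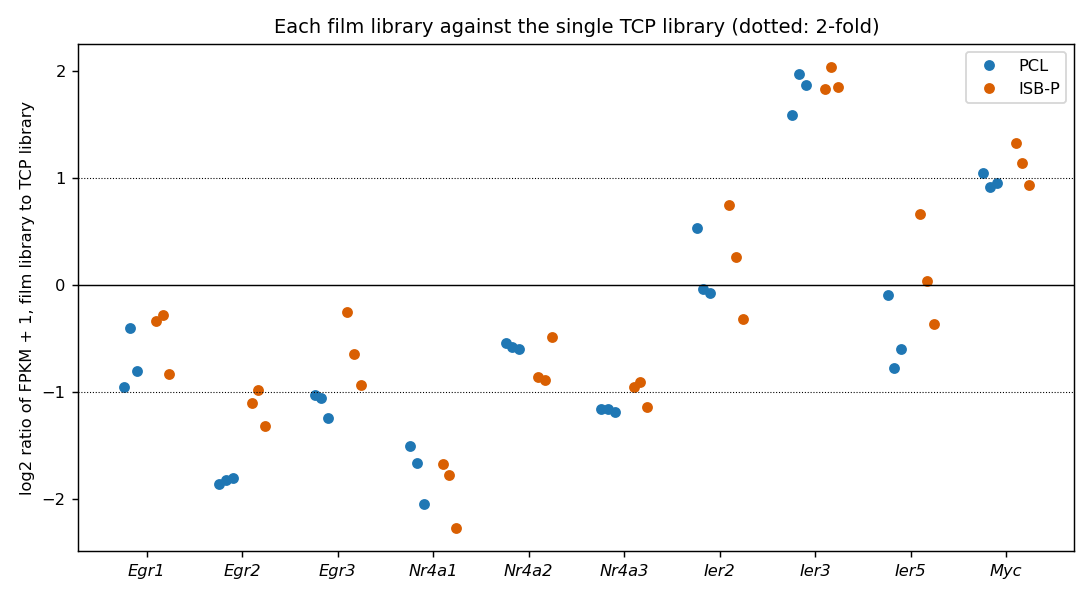
Log2 ratio of FPKM + 1 in each PCL (blue) and ISB-P (orange) library to the single TCP library (y axis) for the 10 genes, with dotted lines at 2-fold. All film libraries lie below 0 for the Egr and Nr4a genes and above 0 for Ier3 and Myc, and the ISB-P libraries of Egr2 lie closer to 0 than its PCL libraries.

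The rest of the pathway was described from 13 lists of genes written from general knowledge, of which AP-1 is given separately. The lists were chosen with earlier results of these data known. The shares called in them are therefore descriptions and not independent of these data. Of the 94 symbols in the other 12 lists, 84 were in the files and 76 were tested. Hbegf, Areg, Ereg and Csrnp1 were called higher on ISB-P, which is 5.26% of the 76 against 1.10% of all tested genes, and none was lower. With the replicate block, 25 were called higher and 7 lower, which is 32.9% and 9.21% against 13.0% and 11.4% of all tested genes. The log2 differences of the 76 had a median of 0.064, against 0.016 for all tested genes. It was 0.012 under quantile normalization and -0.045 under scaling to a common total, where that of all tested genes was -0.018 and -0.089. Without PCL replicate 2 none of the 76 was called, without ISB-P replicate 2 only 1 and without PCL replicate 1 only 2.

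The clearest differences were in the growth factors upstream of the ERK cascade. Hbegf, Areg and Ereg encode ligands of the EGF receptor, which are made as membrane proteins and released by cleavage. Areg was at 2.86, 2.76 and 4.12 FPKM on PCL, at 17.1, 18.2 and 25.7 FPKM on ISB-P and at 0.580 FPKM on TCP. Every ISB-P library was over all PCL libraries, and the log2 difference was 2.32 with a standard error of 0.20 (limma, adjusted p = 0.00395).
Ereg was at 7.06, 9.03 and 9.06 FPKM on PCL, at 30.0, 35.4 and 45.3 FPKM on ISB-P and at 0.269 FPKM on TCP (log2 difference 2.00, standard error 0.19, limma adjusted p = 0.00534). Hbegf was at 19.3, 21.8 and 24.0 FPKM on PCL, at 48.8, 50.4 and 58.8 FPKM on ISB-P and at 31.7 FPKM on TCP (log2 difference 1.24, standard error 0.14, limma adjusted p = 0.0124). In the order of the surfaces the ligands thus differed, since Areg and Ereg were lowest on TCP and Hbegf was lowest on PCL. Egfr, which encodes the receptor, and the kinase genes Map2k1, Map2k2, Mapk3, Rps6ka1 and Rps6ka3 were not called with or without the block. Mapk7 was listed at 0 in all 7 libraries.

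**Figure D4:**
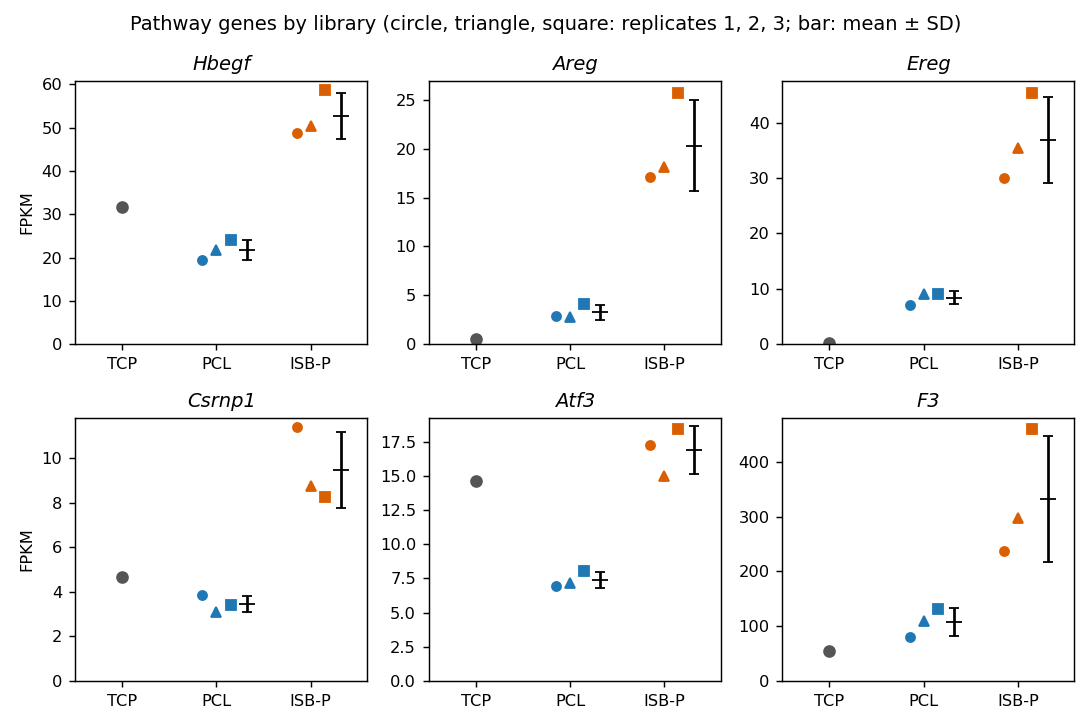
FPKM (y axes, linear, from 0) of the EGF receptor ligands Hbegf, Areg and Ereg, of Csrnp1 and Atf3, which were also called between the films, and of F3, in the TCP (grey), PCL (blue) and ISB-P (orange) libraries, with circle, triangle and square for replicates 1, 2 and 3 and the mean ± SD of each film. All 6 genes are higher in every ISB-P than in every PCL library, and Areg, Ereg and F3 are lower on TCP than on either film.

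Among 15 other tested immediate early genes, Csrnp1, a nuclear protein induced with the early response, was the only one called without the block. It was at 3.85, 3.11 and 3.39 FPKM on PCL and at 11.4, 8.75 and 8.27 FPKM on ISB-P, with no overlap (log2 difference 1.23, standard error 0.15, limma adjusted p = 0.0166). With the block, Btg2, Gem, Plk2, Nfil3, Pim1, Trib1 and Rnd3 were also called higher and Ier5l, a paralog of Ier5, lower. Together with Csrnp1, this made 53.3% of the list higher and 6.67% lower, against 13.0% and 11.4% of all tested genes. Among the genes called only with the block, Trib1 was at 19.2 ± 2.88 FPKM on PCL and 36.1 ± 8.64 FPKM on ISB-P (SD, n = 3, limma adjusted p = 0.123, and 2.77e-04 with the block). Ier5l was at 35.0 ± 4.25 FPKM on PCL and 21.4 ± 9.26 FPKM on ISB-P (SD, n = 3), with an adjusted p of 0.446, and of 0.0112 with the block. The median of this list was 0.30, the highest of the 12.

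Of 8 AP-1 genes, which encode the leucine zipper partners of the early response, Atf3 was called higher on ISB-P (log2 difference 1.09, limma adjusted p = 0.0159), and Fosb, Fosl1 and Jun joined it with the block, with Fos called lower. With the block these are 50% and 12.5% of the list, against 13.0% and 11.4% of all tested genes. Fos was at 37.1 FPKM on TCP, between 7.43 and 9.78 FPKM on PCL and between 5.33 and 8.29 FPKM on ISB-P, so that, like the Egr and Nr4a genes, it was highest on TCP. Fosb, Fosl2 and Jund, at 40.1, 54.5 and 46.1 FPKM on TCP, were also above all film libraries. Fosl1, at 85.5 FPKM on TCP, was below all of them, and Jun, Junb and Atf3 lay within the range of the films.

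Among the regulators that act on early response promoters, none of the 4 SRF group genes in the files and none of the 5 CREB group genes was called without the block. With it, Srf was called lower (log2 difference -0.43, limma adjusted p = 0.419, and 0.00852 with the block) and Crem and Atf1 higher (log2 differences 0.54 and 0.33, adjusted p = 0.407 and 0.719, and 0.00531 and 0.00866 with the block). Srf made 25% of its 4 genes, against 11.4% of all tested genes called lower with the block. Crem and Atf1 made 40% of their 5, against 13.0% called higher. Elk3 had a log2 difference of 0.23 and was not called. The Egr corepressors Nab1 and Nab2 had log2 differences of 0.098 and 0.061 and were not called in either fit. Of the nuclear receptor partners of the Nr4a proteins, Rxra was called lower with the block (log2 difference -0.36, limma adjusted p = 0.643, and 0.0124 with the block) and Rxrb, at -0.23, was not called. Rxra made 50% of the 2 tested partners, against 11.4% of all tested genes. Of the phosphatase 2A subunits, Ppp2ca, Ppp2cb and Ppp2r2d were called higher with the block, with log2 differences of 0.26, 0.27 and 0.29. Their adjusted p-values in limma were 0.824, 0.895 and 0.688, and 0.0213, 0.0372 and 0.0228 with the block. The films overlapped for each of these subunits. The subunits and Hsf1 form the list of Ier partners, of which 50% were called higher with the block, against 13.0% of all tested genes. The median log2 difference of this list was 0.20, and 0.053 under quantile normalization. Of the factors that destabilize early response transcripts, Zfp36l1 was called higher with the block, at 63.0 ± 12.9 FPKM on PCL and 94.7 ± 13.9 FPKM on ISB-P (SD, n = 3, limma adjusted p = 0.252, and 6.76e-04 with the block), while Zfp36 had a log2 difference of -0.064. Zfp36l1 made 50% of the 2 tested factors, against 13.0% of all tested genes called higher with the block. Zfp36l2 was listed at 0.03 FPKM or less in every library.

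Of 5 genes known as Egr1 targets, none was called without the block. F3, which encodes tissue factor, the starter of blood clotting, was at 80.4, 109 and 132 FPKM on PCL, at 237, 297 and 460 FPKM on ISB-P and at 54.1 FPKM on TCP. The films were apart, and the log2 difference of 1.59 narrowly missed the threshold (limma, adjusted p = 0.0508, and 6.07e-06 with the block). Pdgfa, a growth factor for mesenchymal cells, was lower on ISB-P with the block, at 77.3 ± 21.6 FPKM on PCL and 44.0 ± 13.3 FPKM on ISB-P (SD, n = 3, limma adjusted p = 0.265, and 2.51e-04 with the block). The targets thus lay on both sides, with a median of -0.10. With the block 20% were called higher and 20% lower, against 13.0% and 11.4% of all tested genes.

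Around Myc, none of the 8 tested genes of the Max and Mxd network was called without the block. With it Mxd3 and Mxd4, which encode repressors that compete for Max, were lower on ISB-P (log2 differences -0.48 and -0.35, limma adjusted p = 0.553 and 0.810, and 0.0183 and 0.0199 with the block). They made 25% of the 8, against 11.4% of all tested genes called lower with the block. Gsk3b and Usp28, which act on the stability of the Myc protein, had log2 differences of 0.17 and -0.053 and were not called in either fit. Of 13 tested Myc targets, none was called without the block, and with it 7 were called higher and Cad lower, 53.8% and 7.69% of the list against 13.0% and 11.4% of all tested genes. Odc1, the rate-limiting enzyme of polyamine synthesis, was at 93.9 ± 14.3 FPKM on PCL and 151 ± 30.4 FPKM on ISB-P (SD, n = 3, limma adjusted p = 0.189, and 3.18e-04 with the block). Nop58, a nucleolar protein, was at 106 ± 30.1 and 169 ± 80.7 FPKM (SD, n = 3, limma adjusted p = 0.621, and 0.00315 with the block). Myc itself was not called in either fit.

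**Figure D5:**
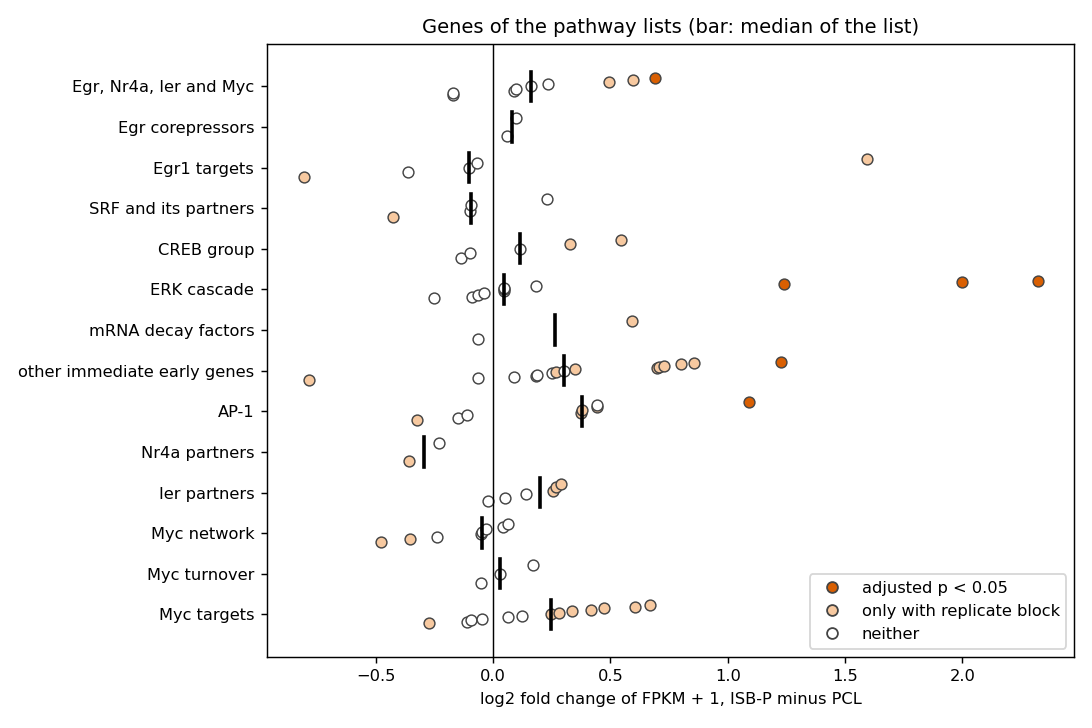
Difference in log2(FPKM + 1) between ISB-P and PCL (x axis, ISB-P minus PCL) for each tested gene of the immediate early genes described here and of the 13 lists (rows), with filled points for an adjusted p under 0.05 in limma, pale points for genes called only with the replicate block, open points for the others and a bar at the median of each list. The points farthest to the right are the EGF receptor ligands Areg, at 2.32, and Ereg, at 2.00, and Egr2 is the only filled point of the top row.

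Over the 7 libraries, the genes whose profile of log2(FPKM + 1) was most like that of each member were found among the 4802 tested genes that averaged 16 FPKM or more. The TCP library and the replicate numbers shape all of these profiles, and with 7 points high correlations are common. Klf4, another early response factor, was most like Egr2 (Pearson r = 0.992, n = 7), followed by Wasf2 (0.990). Cdkn1a, a cell cycle inhibitor, and Ssbp3 were most like Egr1 (0.977 and 0.956), and Cdc42ep4 and Ppp1r10 most like Egr3 (0.976 and 0.974). Timp2 and Sulf2 were most like Nr4a1 (0.995 and 0.994), and Setd7 and Ak3 most like Nr4a2 (0.959 and 0.956). For Ier5 the nearest profiles were those of Ubb, a polyubiquitin gene, and Rbms1 (0.974 and 0.973), for Ier2 those of Hmga2 and Smg9 (0.992 and 0.989), for Ier3 those of Eif5a and Nup85 (0.993 and 0.992) and for Myc those of Mafg and Pcgf3 (0.995 and 0.994). Among the members themselves, Ier3 and Myc were alike (r = 0.92, n = 7), as were Egr2 and Egr3 (0.91), while Nr4a2 and Myc were most opposed (-0.95).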

How the data were processed

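RNA-seq libraries of rMSCs were analysed from 3 PCL, 3 ISB-P and 1 TCP libraries (TruSeq Stranded mRNA). The sample titles gave the groups and the replicate numbers. The submitters' processing notes name bcl2fastq 2.20.0.422, cutadapt 1.18, TopHat2 2.0.13, Cuffdiff 2.2.1 and the build rn5, and the annotation is not given in the sources used here. The authors deposited 1 table of values per library, whose unit is not named and which were read as FPKM from their form and from Cuffdiff. How reads of near-identical genes were assigned is not given in the sources used here.

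No rescaling was applied. The 9467 genes at 1 FPKM or above in 3 or more of the 6 film libraries were fitted on log2(FPKM + 1) by limma 3.58.1 (R 4.3.3) with its trend option. Two-sided p-values of all 9467 genes were adjusted together by the Benjamini-Hochberg method. The fit without the block was tested on simulated data with independent noise in each library. Among 200 genes changed in each of 3 draws, 88% of 4-fold and 61.3% of 2-fold changes were recovered, with at most 9 false calls. Shared deviations of same-numbered libraries and the blocked fit were not simulated. The replicate block adds the replicate number of the titles. Same-numbered libraries deviated together (0.887, 0.431 and 0.867 across genes), so the numbers were taken to pair the libraries, although the file headers number them differently from the titles and no source used here states a shared culture. TCP stayed out of the fit, and ratios to it have no test. Single genes were also compared by the exact permutation test (SciPy 1.17.1).

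The members and gene lists were chosen with earlier results of these data known. The genes named are the 10 members, in each list the genes called, or otherwise the 2 with the largest absolute log2 fold change, the 2 genes most like each member over the 7 libraries, and Hspa1a and Hspa1b. Further genes were named in addition without a fixed rule. These were many but not all of the genes called with the block, some markers, Hsf1, and genes listed at or near 0. Egfr, some kinase genes of the ERK cascade and the remaining AP-1 genes were also named. The alternatives were other scalings, filters, pseudocounts, the block, TCP in the fit, the thresholds of the study and each library left out. Of the 94 list symbols, those beyond the 84 found were not analysed here. Upstream sequences come from RefSeq (GRCr8).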

Additional observations from a re-analysis of the deposited data

How the results depend on the processing

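Of the members, the number called higher on ISB-P, 1 as reported, was 0 with a minimum mean of 16 FPKM, under upper quartile scaling, under scaling to a common total and by the thresholds of the study as read here, and 3 with the replicate block, also when combined with quantile normalization or a common total. The block alone changed the calls of Egr3 and Ier5 and of no other member. The number called higher ranged from 0 to 1 with single libraries left out. With a replicate number left out of the blocked fit, which then rests on 1 residual degree of freedom, it ranged from 3 to 7 (7 without replicate 3). Without replicates 1, 2 and 3 those fits called 893, 1181 and 1758 of all 9467 tested genes higher and 880, 823 and 1379 lower. The number called lower, 0 as reported (2 members had an unadjusted p under 0.05 in limma, both higher), was 1 in the blocked fit with a common total (Nr4a1) and from 0 to 1 with a replicate number left out (Nr4a2, without replicate 3). Of the pathway list genes, 4 were called higher and 0 lower as reported, 25 and 7 with the replicate block, 19 and 10 with the block and quantile normalization, and 18 and 15 with the block and a common total. With a replicate number left out of the blocked fit the counts ranged from 17 to 31 (21 without replicate 2) and from 5 to 8. With single libraries left out, from 0 to 4 were called higher, with 0 without PCL replicate 2, 1 without ISB-P replicate 2 and 2 without PCL replicate 1. Members over 2-fold higher on ISB-P than on TCP, 2 as reported, were 1 under quantile normalization and under a common total. The log2 difference of Ier2 turned to -0.023 under a common total, alone or with the block, to -0.014 in the blocked fit without replicate 2, and ranged from -0.17 to 0.36 with single libraries left out (below 0 without ISB-P replicate 1 or PCL replicate 3). That of Ier3 turned to -0.054 under quantile normalization and to -0.018 under a common total, each alone or with the block, and ranged from -0.014 (without PCL replicate 1) to 0.18. That of Nr4a1 ranged from -0.33 to 0.010 (without ISB-P replicate 3). Over all genes, the replicate block raised the calls from 104 higher and 59 lower to 1228 and 1079, which became 714 and 2113 with a common total, a scaling that shifted the median of all genes to -0.089. Without the block, the common total gave 70 and 70, and the lowest counts, 14 and 6, came without PCL replicate 2. The blocked fits with other scalings or with a replicate number left out were chosen after seeing the data. The cause of these changes was not tested. The depth is unknown, and Egr2 and Nr4a3 lie near 1 FPKM, where the pseudocount weighs most.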

Other observations

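Relative to their means, Ier5 and Ier2 varied most of the 10 genes between the libraries of a film. The SD was 37.2% of the mean for Ier5 and 36.5% for Ier2 on ISB-P, and 26.3% and 25.7% on PCL. Ier3 varied by 13.5% on PCL and 8.13% on ISB-P, and Nr4a2 by 2.30% on PCL and 19.6% on ISB-P. With 3 libraries per film these values were not tested.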
